A study of Mus musculus with 12 samples.

Results

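The perilipins, the CIDE proteins and the triglyceride lipase gene Pnpla2 with its inhibitors were followed in livers of tumour-bearing mice kept at 3 housing temperatures. The set held 10 genes of the 55421 in the count table, each found by its gene symbol, and 9 of the 10 were among the 15006 genes with enough counts to test. They were Plin2, Plin3, Plin4 and Plin5 (perilipins), Cidea, Cideb and Cidec (CIDE proteins), Pnpla2 (the lipase), and G0s2 and Hilpda (its inhibitors). Cidea had too few counts to be tested. In 29 °C livers 4 of the 9 tested genes, Plin2, Plin5, G0s2 and Hilpda, rose against 6 °C livers, with fitted log2 fold changes from 1.58 to 2.89, and none fell, where 1.13% of all tested genes rose. The set was chosen with earlier results of these data known, so these shares are a description only. Pnpla2, Plin3 and Cideb stood at -0.35 to -0.09 on that scale and did not pass the test.

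Triglyceride in hepatocytes is stored in lipid droplets, a core of neutral lipid under a phospholipid monolayer that carries proteins. Perilipins coat this surface and limit the access of lipases to it, CIDE proteins promote droplet growth and fusion and, in the case of Cideb, lipid loading of secreted lipoproteins, and Pnpla2 (adipose triglyceride lipase, ATGL) takes the first step in breaking triglyceride down to free fatty acids. The small proteins encoded by G0s2 and Hilpda bind ATGL and inhibit it. Many of these genes are known targets of the fasting-activated receptor PPARA or of its relative PPARG, and Hilpda is also known as a hypoxia-inducible gene.

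Liver total RNA depleted of ribosomal RNA was sequenced from wild-type (WT) mice on day 21 after E0771 cells, a mouse breast cancer line, were implanted into the second mammary fat pad. Of the 12 libraries, 4 came from mice housed at 6 °C (libraries 1 to 4), 4 at 22 °C (libraries 5 to 8) and 4 at 29 °C (libraries 9 to 12), after 1 week of acclimatization with food and water freely available. All groups carried the tumour, so no comparison here involves a tumour-free liver, and the deposited labels give neither sex nor age. The protocol names both Balb/C and C57Bl6/J mice without assigning a strain to any library. The labels number the libraries but do not say that each came from a separate mouse, and p-values then measure only the spread between these samples.

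Total counts per library ran from 7615585 to 19001126, at which 3 counts correspond to 0.151 to 0.399 CPM (a gene's count scaled to the size of its library). Libraries 1, 7, 8 and 9 held 11.8 to 17.1 CPM of the class II pseudogene H2-Ea-ps and the other 8 held none, and the 4 also had the highest shares of mitochondrial ribosomal RNA (0.662% to 2.27%, against 0.0668% to 0.342%). The highest summed level of 12 neutrophil markers at each temperature also fell in one of these 4 (1025 CPM in library 1, 2033 in library 7, 3299 in library 9). A second fit therefore carried a term for this split of the libraries, and another used the 8 libraries without H2-Ea-ps alone. The long non-coding RNA Gm26917 took 0.667% and 0.605% of counts in libraries 5 and 6 and 1.66% in library 3, against 4.03% to 8.70% elsewhere. Library 11 stood apart in intestinal epithelial markers (728.7 CPM summed over 12 genes, at most 40.6 CPM in the others). The 10 hepatocyte markers summed to 87183 CPM or more in every library. In 29 °C against 6 °C 1 of them fell (Tat, log2 fold change -1.62, adjusted p = 0.0227 in edgeR), where 1.39% of all tested genes fell. Of the 10, 3 had positive values and the median was -0.33. In 29 °C against 22 °C 0 passed and 0 of 10 were positive (median -0.23). With the term for the split 3 of 10 fell in 29 °C against 6 °C and 1 of 10 in 29 °C against 22 °C. Of all tested genes 6.23% and 1.88% fell in those comparisons. The 10 adipocyte markers summed to 302 to 785 CPM at 6 °C, 450 to 926 CPM at 22 °C and 380 to 774 CPM at 29 °C, most of it from Car3 (group means of 542 to 682 CPM), which hepatocytes also express, and 0 of the 4 tested passed in any comparison. Fabp4 reached 10.7 CPM in library 10 and at most 5.77 CPM elsewhere. Of the defining fat cell markers, Adipoq reached at most 0.418 CPM and Plin1, the main perilipin of adipocytes, at most 1.11 CPM. The brown fat gene Ucp1 was at 0 in all 12. Cfd, also among the adipocyte markers, was uneven, at 3.47 CPM in library 10, 3.26 CPM in library 3 and 0.956 CPM in library 11. Elsewhere Cfd reached at most 0.251 CPM. The part of traces of fat tissue in the members' levels was not tested.

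RefSeq (GRCm38.p6) gave promoter windows, 250 bases before to 50 after a start site, for 9 of the 10 genes. Those of the 4 genes that rose are shown because the members known as hypoxia and PPAR targets can be read against the core letters of those factors' sites. They run 5′ to 3′ on the gene's strand, in lower case, with capitals marking ACGTG (a form of the hypoxia response core) or AGGTCA (the nuclear receptor half-site) on either strand. Other forms of the hypoxia core were not searched for. The windows are at chr4:86670010-86670309 (minus strand) for Plin2, chr17:56117499-56117798 (minus) for Plin5, chr1:193273139-193273438 (minus) for G0s2 and chr6:29272376-29272675 (plus) for Hilpda.
Plin2: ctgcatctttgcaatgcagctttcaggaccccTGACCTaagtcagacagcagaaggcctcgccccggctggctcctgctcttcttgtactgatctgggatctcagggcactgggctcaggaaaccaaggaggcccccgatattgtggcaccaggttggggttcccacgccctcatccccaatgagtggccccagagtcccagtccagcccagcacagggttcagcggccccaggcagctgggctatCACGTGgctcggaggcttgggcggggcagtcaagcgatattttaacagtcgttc
Plin5: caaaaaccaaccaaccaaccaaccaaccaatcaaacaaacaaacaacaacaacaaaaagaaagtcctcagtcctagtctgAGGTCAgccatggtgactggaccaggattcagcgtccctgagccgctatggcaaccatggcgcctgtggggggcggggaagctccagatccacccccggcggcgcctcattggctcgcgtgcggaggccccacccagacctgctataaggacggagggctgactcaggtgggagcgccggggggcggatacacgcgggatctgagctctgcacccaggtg
G0s2: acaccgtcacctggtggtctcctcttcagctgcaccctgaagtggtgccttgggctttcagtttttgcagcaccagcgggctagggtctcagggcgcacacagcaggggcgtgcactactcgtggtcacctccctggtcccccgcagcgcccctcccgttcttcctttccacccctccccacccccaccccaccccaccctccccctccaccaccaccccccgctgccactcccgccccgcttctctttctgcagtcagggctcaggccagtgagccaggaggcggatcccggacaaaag
Hilpda: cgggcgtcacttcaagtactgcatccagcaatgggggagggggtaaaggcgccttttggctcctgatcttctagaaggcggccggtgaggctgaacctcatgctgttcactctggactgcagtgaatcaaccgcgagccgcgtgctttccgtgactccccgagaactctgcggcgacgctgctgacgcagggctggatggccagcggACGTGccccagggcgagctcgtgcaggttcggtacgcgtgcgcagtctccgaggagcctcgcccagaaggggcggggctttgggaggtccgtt
Counted from the start site, CACGTG, which holds ACGTG on both strands, began at position -4 in Plin2, and ACGTG at position -43 in Hilpda. The other Hilpda entry, whose start site lies upstream of this one, had none. AGGTCA, or its reverse complement TGACCT, began at position -218 in Plin2 and -170 in Plin5. The other Plin5 entry, whose start site lies downstream, held AGGTCA at position 13. No capitals fall in the G0s2 window, which says only that these letters are not in it. Both are common letters: of 32851 promoter windows 19.625% held ACGTG, 7.15% CACGTG and 16.255% AGGTCA. The motifs were picked after the windows had been looked at, and the matches are descriptions of sequence, not sites of binding.

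Per kilobase of exon, Plin2 had the highest mean level over the 12 libraries (107 CPM per kilobase), followed by Cideb (96.4), G0s2 (57.0), Pnpla2 (20.7), Plin5 (20.3), Plin3 (9.53), Hilpda (3.64), Plin4 (2.36), Cidec (0.761) and Cidea (0.0713). That order depended on the temperature. At 6 °C Cideb led with 99.5 ± 22.4 CPM per kilobase (SD, n = 4 here and at each mean below) and Plin2 stood at 54.7 ± 13.8, while at 29 °C Plin2 (187 ± 67.5) and G0s2 (129 ± 77.9) stood above Cideb (93.4 ± 18.5) in the mean. At 29 °C the G0s2 libraries overlapped both others, and the lowest Plin2 library (114 CPM per kilobase) lay just above the highest Cideb library (113). Neighbours Pnpla2 and Plin5 differed little over all libraries, but Pnpla2 was the higher at 6 °C (25.4 ± 3.39 against 11.5 ± 3.30) and Plin5 at 29 °C (34.2 ± 5.49 against 19.9 ± 6.83), where their libraries overlapped. Hilpda and Plin4 overlapped at every temperature. Cidec and Cidea, the CIDE genes of white and brown fat cells, stood at the bottom.

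**Figure D1:**
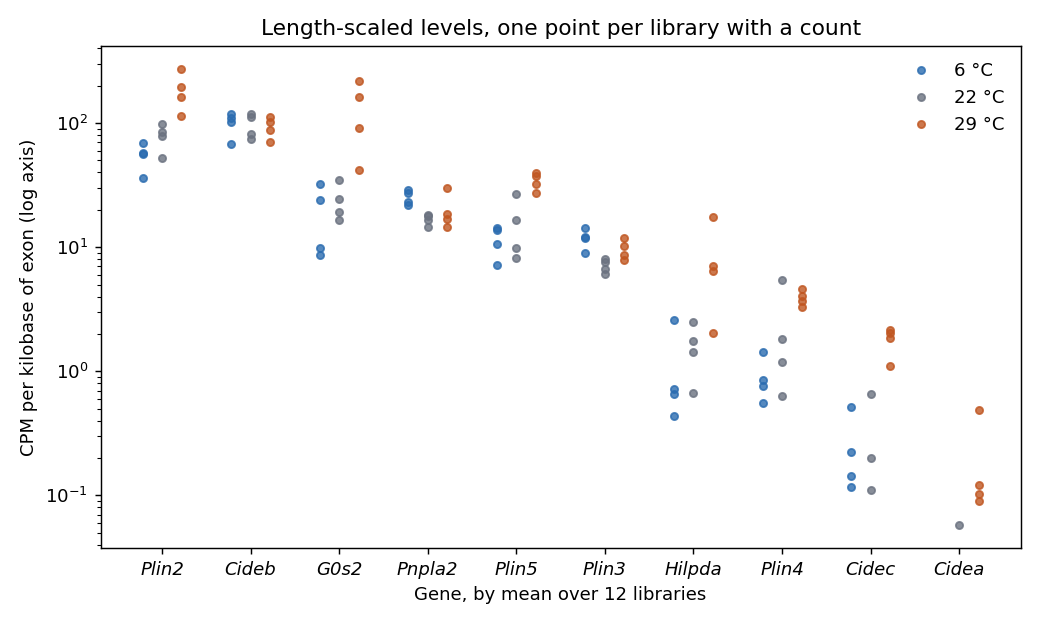
Levels per kilobase of exon (CPM per kilobase, log axis) of the 10 genes in each library with at least 1 count, coloured by housing temperature and ordered by the mean over 12 libraries. Plin2 and Cideb lie together at the top of the order and Cidea, with counts in 5 libraries, lies at the bottom.

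Plin2 (chr4:86648386-86670060, minus strand, GRCm38) encodes the perilipin that coats most droplets of the hepatocyte. Its level was 126, 243, 200.4 and 198.8 CPM in libraries 1 to 4 (6 °C), 300.1, 185.4, 278.8 and 342.5 CPM in libraries 5 to 8 (22 °C) and 399, 690.1, 570.2 and 962.7 CPM in libraries 9 to 12 (29 °C). All 4 libraries at 29 °C were above all 8 others, and the 6 °C and 22 °C libraries overlapped. Between 29 °C and 6 °C the fitted difference was a log2 fold change of 1.77 (SE 0.28; 95% interval 1.16 to 2.38), a 3.41-fold higher level, with an adjusted p of 0.0120 in edgeR's quasi-likelihood test over all tested genes.

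Plin5 (chr17:56111601-56117596, minus strand) encodes a perilipin of tissues that burn fat, known for tying droplets to mitochondria. It had 14.9, 28.8, 22.2 and 29.7 CPM at 6 °C, 20.4, 17.1, 56.0 and 34.4 CPM at 22 °C and 57.3, 78.4, 67.4 and 82.8 CPM at 29 °C. The lowest 29 °C library lay just above the highest 22 °C library, library 7, and clear of every 6 °C library. Against 6 °C the 29 °C level had a log2 fold change of 1.58 (SE 0.34; 95% interval 0.85 to 2.31; adjusted p = 0.0341 in edgeR).

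Plin4 (chr17:56100591-56109803, minus strand), whose protein coats droplets of fat and muscle cells, lies beside Plin5. Its level was 8.28, 4.92, 4.37 and 3.18 CPM at 6 °C, 6.92, 3.67, 31.7 and 10.5 CPM at 22 °C and 26.5, 21.3, 19.1 and 23.2 CPM at 29 °C. The 29 °C and 6 °C groups did not overlap, while library 7 at 22 °C was above every 29 °C library. In 29 °C against 6 °C its log2 fold change was 2.11 (95% interval 0.91 to 3.31), with an adjusted p of 0.0649 in edgeR, which missed the threshold of 0.05. With the term for the split it was 2.24, with an adjusted p of 0.00398, and over 21 alternatives the adjusted p ranged from 0.000298 to 0.172. The highest Plin4 level at each temperature stood in a library with H2-Ea-ps (libraries 1, 7 and 9).

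Plin3 (chr17:56277476-56292873, minus strand), the perilipin that also occurs free in the cytosol, followed another order. It had 34.3, 45.1, 53.9 and 45.7 CPM at 6 °C, 23.1, 25.3, 28.9 and 30.2 CPM at 22 °C and 29.9, 38.8, 44.8 and 32.8 CPM at 29 °C. All 6 °C libraries were above all 22 °C libraries, and the 29 °C libraries overlapped both. Between 29 °C and 6 °C the log2 fold change was -0.29 (95% interval -0.65 to 0.07; adjusted p = 0.366 in edgeR).

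**Figure D2:**
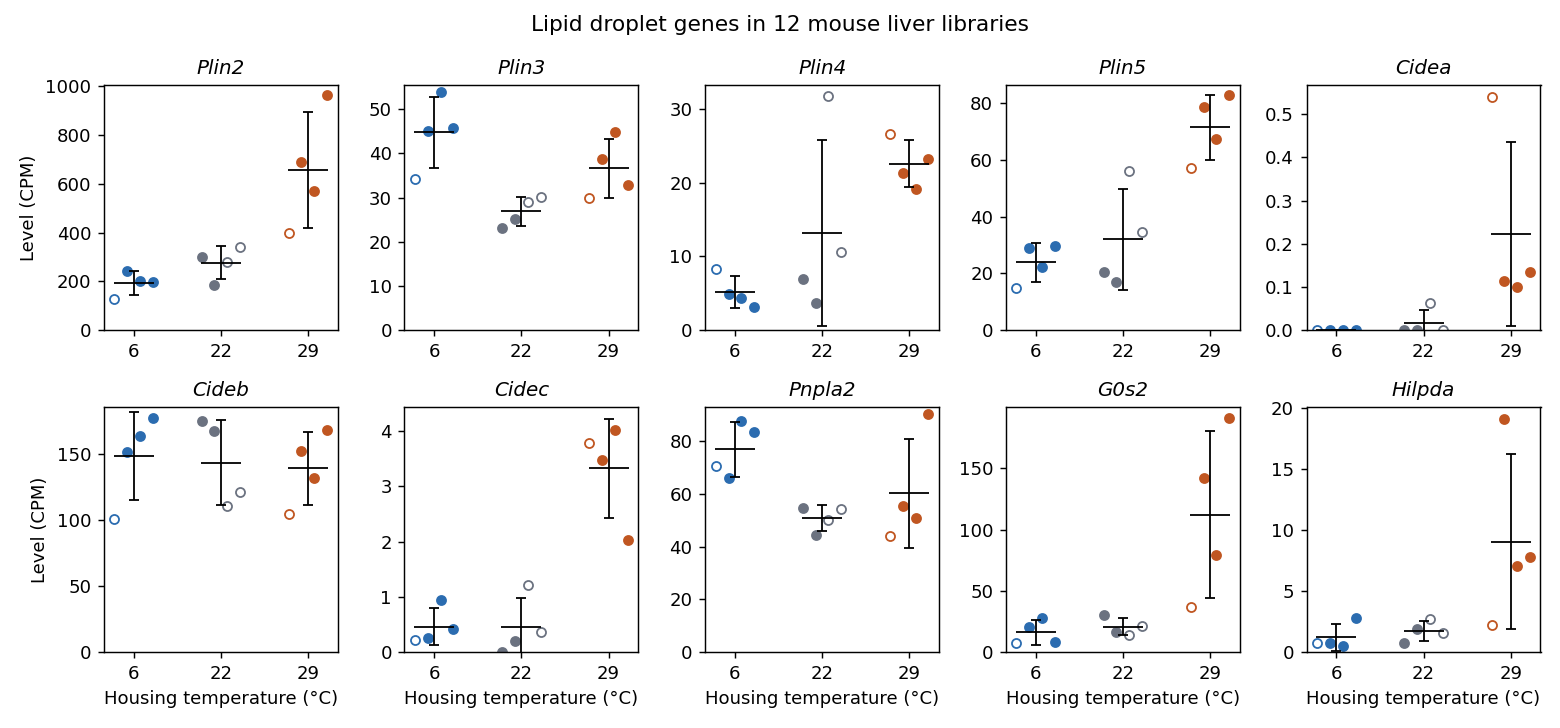
CPM on a linear axis from 0 of the 10 genes in each library at 6, 22 and 29 °C, with the mean and SD of each group, and with open points for the 4 libraries that hold H2-Ea-ps. The 29 °C points of Plin2, Plin5, G0s2 and Cidec lie above all others, whereas those of Plin3, Cideb and Pnpla2 overlap the 6 °C points.

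Among the CIDE genes, Cidec (chr6:113424634-113435760, minus strand), whose product drives growth of large droplets and which is known to be induced in fatty mouse liver, was low throughout. Its level was 0.216, 0.266, 0.953 and 0.418 CPM at 6 °C, 0, 0.204, 1.21 and 0.373 CPM at 22 °C and 3.78, 3.47, 4.03 and 2.03 CPM at 29 °C. All 4 libraries at 29 °C were above all 8 others. The counts behind these levels summed to 22 at 6 °C, 26 at 22 °C and 220 at 29 °C. The log2 fold change of 29 °C against 6 °C was 2.79 (95% interval 1.24 to 4.35), with an adjusted p of 0.0580 in edgeR and 0.0116 with the split term (0.00267 to 0.146 over the alternatives). Of the 9 tested genes Cidec alone passed the count filter chiefly through the 29 °C group, where 4 libraries exceeded 0.774 CPM against 1 at 6 °C and 1 at 22 °C, so that its entry into the test already required it to differ.

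Cidea (chr18:67343604-67367785, plus strand), best known from brown fat, had no count in the 4 libraries at 6 °C and 1 count, in library 7, at 22 °C. The 29 °C libraries held 7, 2, 2 and 2 counts, or 0.540, 0.114, 0.101 and 0.136 CPM, and 3 of these 4 lay under the level of 3 counts. No fold or test is given for it. The 6 brown adipocyte markers summed to 0.665 to 2.88 CPM at 6 °C, 2.24 to 6.12 CPM at 22 °C and 2.33 to 6.25 CPM at 29 °C.

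Cideb (chr14:55754050-55758458, minus strand) is the CIDE gene of normal hepatocytes. It had 100.5, 151.4, 163.3 and 176.8 CPM at 6 °C, 175.0, 166.8, 110.5 and 121.0 CPM at 22 °C and 104.2, 152.4, 131.8 and 167.7 CPM at 29 °C. The groups overlapped throughout, and the lowest library of each temperature was one with H2-Ea-ps (libraries 1, 7 and 9). In 29 °C against 6 °C the log2 fold change was -0.09 (95% interval -0.55 to 0.37; adjusted p = 0.868 in edgeR). Of its exon bases 76.3% are shared with Nop9 on the opposite strand, and since the strand setting of the counting is not given, reads of the pair may not have been told apart.

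Pnpla2 (chr7:141455198-141460743, plus strand), the lipase itself, had 70.5, 65.8, 87.4 and 83.2 CPM at 6 °C, 54.6, 44.3, 49.9 and 54.2 CPM at 22 °C and 44.1, 55.5, 50.8 and 90.3 CPM at 29 °C. Every 6 °C library was above every 22 °C library, and the 29 °C group held both the lowest and the highest library of all. The log2 fold change of 29 °C against 6 °C was -0.35 (95% interval -0.77 to 0.07; adjusted p = 0.345 in edgeR).

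G0s2 (chr1:193272161-193273217, minus strand), an inhibitor of ATGL, had 7.49, 20.7, 28.0 and 8.53 CPM at 6 °C, 30.2, 16.6, 14.4 and 21.4 CPM at 22 °C and 36.8, 141.9, 79.0 and 190.7 CPM at 29 °C. The 29 °C libraries were all above the others but spread widely, library 9 lying close to the highest 22 °C library. The log2 fold change of 29 °C against 6 °C was 2.80 (SE 0.56; 95% interval 1.56 to 4.04; adjusted p = 0.0338 in edgeR), a 6.95-fold higher level.

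Hilpda (chr6:29272488-29275446, plus strand) had 0.720, 0.798, 0.477 and 2.84 CPM at 6 °C, 0.738, 1.94, 2.75 and 1.57 CPM at 22 °C and 2.24, 19.2, 7.09 and 7.79 CPM at 29 °C. Library 9 at 29 °C lay below library 4 at 6 °C and library 7 at 22 °C, and the other 29 °C libraries lay above all others. The log2 fold change of 29 °C against 6 °C was 2.89 (SE 0.68; 95% interval 1.42 to 4.37; adjusted p = 0.0459 in edgeR). The value was 3.78 without library 4 (adjusted p = 0.0510) and 2.23 without library 10 (adjusted p = 0.131).

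Set against the lipase within the same library, the inhibitor transcripts stood highest at 29 °C. The ratio of G0s2 to Pnpla2 counts was 0.106, 0.315, 0.321 and 0.103 at 6 °C, 0.552, 0.375, 0.289 and 0.395 at 22 °C and 0.835, 2.56, 1.56 and 2.11 at 29 °C. G0s2 counts exceeded Pnpla2 counts in 3 of the 4 libraries at 29 °C and in none of the others. The ratio of Hilpda to Pnpla2 counts averaged 0.0155 ± 0.0128 at 6 °C, 0.0353 ± 0.0180 at 22 °C and 0.156 ± 0.132 at 29 °C, where library 9 (0.0508) lay under library 7 at 22 °C (0.0550). These are ratios of transcript counts, not scaled for length, and carry no separate test. Which of the 2 genes stands higher depends on that scaling, as G0s2 has 871 bases of exon and Pnpla2 3020. Per kilobase of exon, G0s2 was above Pnpla2 in every library at 22 °C and 29 °C. At 6 °C it was above in libraries 2 (23.8 against 21.8 CPM per kilobase) and 3 (32.2 against 28.9).

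**Figure D3:**
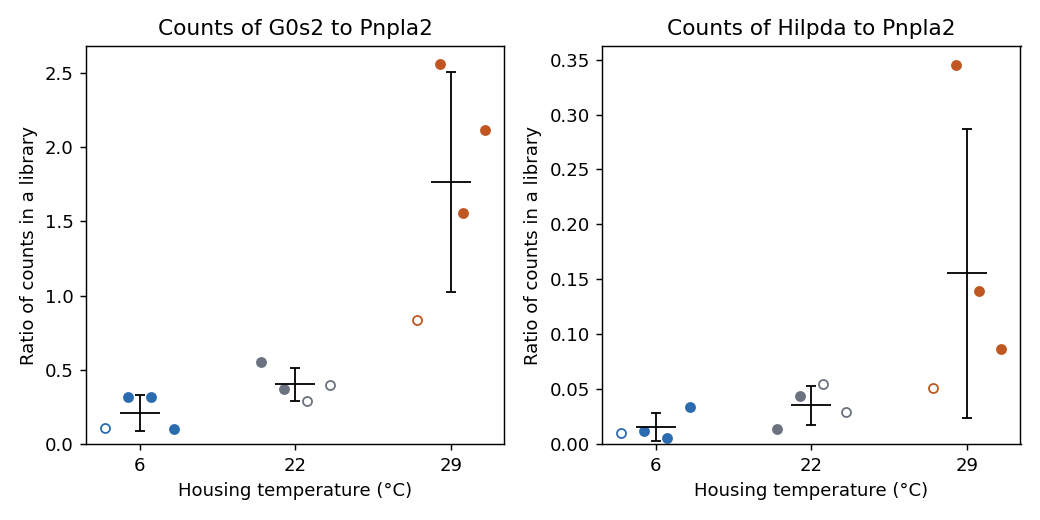
Ratio of G0s2 to Pnpla2 counts (left) and of Hilpda to Pnpla2 counts (right) in each library by housing temperature, with mean and SD (bars) and open points for libraries that hold H2-Ea-ps. For G0s2 the 29 °C libraries range from 0.835 to 2.56, above the highest other library at 0.552.

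In all, between 29 °C and 6 °C 4 of the 10 genes rose (1.13% of all tested genes did) and 0 fell, 5 did not pass and 1 was not tested. As the members were chosen with earlier results of these data known, this share and those below are descriptions. Leaving aside Cidec, which the filter admitted through its 29 °C level, 4 of the 8 tested genes (Plin2, Plin4, Plin5 and G0s2) had groups that did not overlap with 29 °C the higher, as 6.56% of all tested genes had. With the split term 5 of these 8 rose (Plin4 in addition), where 6.32% of all tested genes rose, and DESeq2 called the same 5, where 3.99% of the genes it tested rose; both also called Cidec. The median log2 fold change was 1.68 over the 4 perilipin genes and 0.0005 over all tested genes. In the whole liver a change of RNA per cell and a change in the number of cells of a type cannot be told apart. All 12 neutrophil markers had positive fold changes in 29 °C against 6 °C (median 1.38, none passing). Their sums were 24.3 to 1025 CPM at 6 °C and 717 to 3299 CPM at 29 °C. All 10 Kupffer cell markers were also positive (median 0.62, none passing), while 7 of 10 hepatocyte markers were negative and 1 fell. With the split term 2 of 12 neutrophil markers rose, 0 Kupffer cell markers passed and 3 of 10 hepatocyte markers fell. Of all tested genes 6.32% rose and 6.23% fell in that fit. The part of these cell types in the results was not tested. Within the 29 °C group, library 9 had the highest neutrophil sum and the lowest hepatocyte sum (87183 CPM), and it alone held H2-Ea-ps. Its Plin2, Plin3, Plin5, Cideb, Pnpla2, G0s2 and Hilpda levels were the lowest of the group. Its Plin4 (26.5 CPM) and Cidea (0.540 CPM) levels were the highest, and its Cidec level (3.78 CPM) was exceeded only in library 11 (4.03 CPM). The calls for Plin5, G0s2 and Hilpda rested on the full set of libraries. Plin5 and G0s2 were lost when any one of libraries 1, 2, 3, 4, 10, 11 and 12 was left out, and Hilpda was lost also without library 6 or 8, while Plin2 held without any one library.

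**Figure D4:**
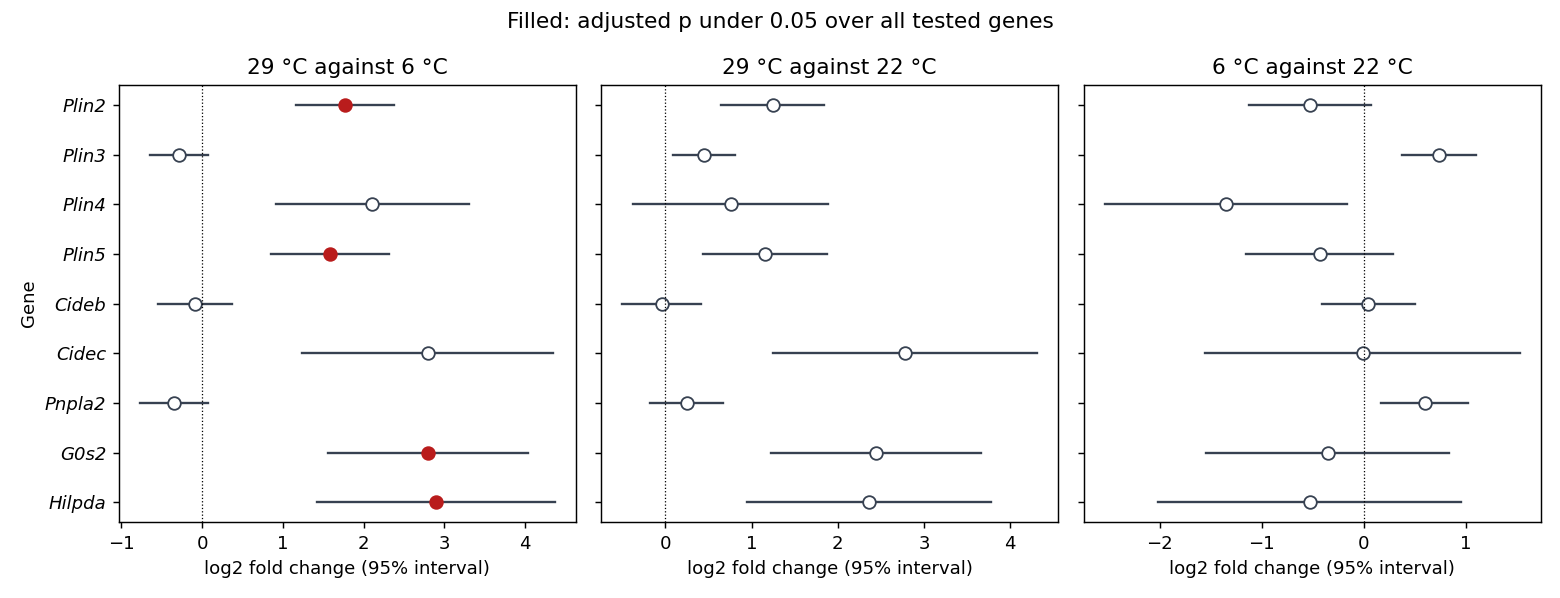
Log2 fold change with its 95% interval of the 9 tested genes in the 3 comparisons of temperatures, filled where the adjusted p was under 0.05. Filled points appear for Plin2, Plin5, G0s2 and Hilpda in 29 °C against 6 °C and nowhere else.

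Between 29 °C and 22 °C, the usual room temperature of mouse housing, the same genes had positive differences, but no gene of the 15006 passed the test (0% called; 2241 at an unadjusted p under 0.05). DESeq2 called 308 genes, 1.23% of those it tested being higher at 29 °C, and among them Plin2 (adjusted p = 0.00299), Plin5 (0.0326), G0s2 (0.000214), Hilpda (0.0174) and Cidec (0.00805). Without library 9 edgeR's test called Plin2 (log2 fold change 1.42, adjusted p = 0.0375) and G0s2 (2.73, adjusted p = 0.0423), where 0.36% of tested genes rose. Library 9 held the lowest Plin2 and G0s2 levels of the 29 °C group. Leaving out any other single library gave no call for a member. For both genes the adjusted p in edgeR was 0.414 without library 5 and 0.467 without library 10. Both comparisons share the 29 °C libraries. With all 12 libraries the log2 fold changes were 1.24 for Plin2 (95% interval 0.64 to 1.84; adjusted p = 0.156 in edgeR), 1.15 for Plin5 (0.44 to 1.87; adjusted p = 0.191), 2.44 for G0s2 (1.23 to 3.66; adjusted p = 0.161), 2.36 for Hilpda (0.94 to 3.78; adjusted p = 0.178) and 2.78 for Cidec (1.25 to 4.31; adjusted p = 0.163). Plin4 stood at 0.76 (-0.37 to 1.89; adjusted p = 0.517), Plin3 at 0.45 (0.09 to 0.81; adjusted p = 0.263), Pnpla2 at 0.24 (-0.18 to 0.67; adjusted p = 0.582) and Cideb at -0.04 (-0.50 to 0.41; adjusted p = 0.942), all in edgeR. Without library 7 Plin4 was at 1.67 (adjusted p = 0.0955) and Cidec at 3.99 (adjusted p = 0.0621), and without library 10 Hilpda was at 1.70 (adjusted p = 0.488). The 29 °C libraries were above all 22 °C libraries for Plin2, Plin5 and G0s2, 3 of the 8 tested genes other than Cidec, as for 3.89% of all tested genes, and also for Cidec.

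Libraries 7 and 8, which hold H2-Ea-ps, had higher Plin4, Plin5 and Cidec levels than libraries 5 and 6 at the same 22 °C (34.4 CPM or more against 20.4 CPM or less for Plin5). With the split term Plin2 rose in 29 °C against 22 °C (log2 fold change 1.10, adjusted p = 0.0454 in edgeR), where 1.56% of all tested genes rose. Cidec also rose (3.01, adjusted p = 0.0346), with the limit that its 29 °C level brought it into the test. Without library 11 in that fit the fold changes were about as large, 1.17 for Plin2 and 2.90 for Cidec, but neither passed (adjusted p = 0.0700 and 0.0676), and over the alternatives the adjusted p ran from 0.00281 to 0.467 for Plin2 and from 0.00398 to 0.467 for Cidec. In the 8 libraries without H2-Ea-ps, which leave 2 at 22 °C, 5 of the genes other than Cidec rose (Plin2, Plin3, Plin4, Plin5 and Hilpda) and G0s2 had an adjusted p of 0.0542, where 9.35% of the 15173 genes tested rose; Cidec rose as well. Those 2 libraries at 22 °C are also the ones with the lowest share of Gm26917 counts. For Cidec they held 0 and 2 counts.

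**Figure D5:**
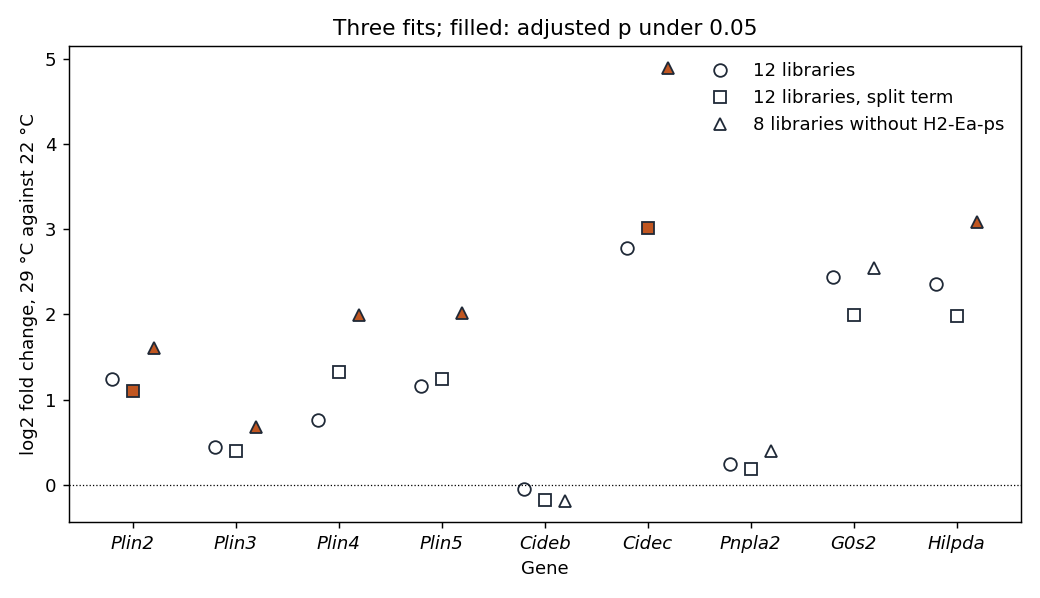
Log2 fold change of 29 °C against 22 °C of the tested genes in the fit of 12 libraries (circles), the fit with a term for H2-Ea-ps (squares) and the fit of the 8 libraries without it (triangles), filled where the adjusted p was under 0.05. Plin2 ranges from 1.10 to 1.61 over the fits, filled for 2 of the 3, and the Cidec triangle rests on 0 and 2 counts at 22 °C.

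Between 6 °C and 22 °C none of the 9 tested genes passed, in a comparison where 5 genes (0.0333%) were called and 1787 had an unadjusted p under 0.05. DESeq2 called 167 genes, 1.01% of those it tested being higher at 6 °C, and Plin3 was among them (log2 fold change 0.74, adjusted p = 0.0181). Plin3 and Pnpla2 were the 2 genes whose 6 °C libraries were all above the 22 °C libraries, as 3.53% of all tested genes were. Their log2 fold changes of 6 °C against 22 °C were 0.73 (95% interval 0.37 to 1.10; adjusted p = 0.204 in edgeR) and 0.60 (0.17 to 1.02; adjusted p = 0.281). With the split term 0.367% of genes were called, none of them among these 9. In the 8 libraries without H2-Ea-ps Plin3 rose in 6 °C against 22 °C (0.99, adjusted p = 0.00818 in edgeR; 0.00818 to 0.426 over the alternatives), where 4.48% of genes rose. The remaining values were -0.53 for Plin2, -1.35 for Plin4, -0.43 for Plin5, -0.36 for G0s2, -0.53 for Hilpda, -0.01 for Cidec and 0.05 for Cideb, and the groups of each overlapped. Without library 7 Plin4 was at -0.44, and without library 4 Hilpda was at -1.42. Thus, with 12 libraries, fitted levels of Plin2, Plin4, Plin5, G0s2 and Hilpda ran from lowest at 6 °C to highest at 29 °C. No step from 6 °C to 22 °C passed the test. In the 8 libraries without H2-Ea-ps that step turned for Plin5 (0.51 in 6 °C against 22 °C) and Hilpda (0.081). Without library 7 Plin5 was at -0.013. Fitted levels of Plin3 and Pnpla2 were lowest at 22 °C, though without library 12 the Pnpla2 value at 29 °C fell to that of 22 °C (log2 fold change -0.018).

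The other genes of triglyceride handling gave few calls in 29 °C against 6 °C. Without the split term 1.13% of all tested genes rose and 1.39% fell. The split term raised these shares to 6.32% and 6.23%, and each list's count with it follows that of the fit without it. Of 14 other lipases and lipolysis regulators 1 rose and 0 fell (median log2 fold change -0.19), and with the split term 1 rose and 1 fell. The one that rose was Ddhd2, a triglyceride hydrolase best known from neurons, from 19.9 ± 4.29 to 40.8 ± 12.3 CPM (log2 fold change 1.04, adjusted p = 0.0242 in edgeR). The carboxylesterase gene Ces3b had 136 ± 74.8 CPM at 6 °C and 27.9 ± 14.9 CPM at 29 °C (-2.29, adjusted p = 0.0583; 0.00245 with the split term), and the phospholipase gene Pnpla8 had a log2 fold change of -0.40 (adjusted p = 0.145). Abhd5, the activator of ATGL, averaged 25.7 ± 2.79 CPM in the 6 °C libraries and 29.6 ± 3.62 CPM in the 29 °C ones (0.20, adjusted p = 0.485).

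None of 17 tested triglyceride synthesis genes passed in either direction (median log2 fold change 0.07), and with the split term 0 rose and 2 fell, Gpat4 (adjusted p = 0.00364) and the acyl-CoA synthetase gene Acsl4 (adjusted p = 0.00881). The acyltransferase gene Gpat4, which acts at the first step of glycerolipid synthesis, was at -0.87 (adjusted p = 0.0857 in edgeR), and Dgat1 and Dgat2, whose products make triglyceride in the last step, were at 0.49 (adjusted p = 0.138) and -0.41 (adjusted p = 0.153). Of 20 tested genes of droplet assembly and other droplet surface proteins 0 rose and 1 fell (median -0.18), where 1.39% of all tested genes fell. With the split term 1 rose and 3 fell, where 6.32% of all tested genes rose and 6.23% fell. The gene that fell without the term was Rdh16, a retinol dehydrogenase, from 73.7 ± 22.9 to 36.9 ± 4.08 CPM (-0.998, adjusted p = 0.0294). Mettl7a1, which encodes a droplet-associated methyltransferase-like protein, was at -0.999 (adjusted p = 0.0584), and Fitm2, needed for droplet budding, at 0.47 (adjusted p = 0.124). Hsd17b13, an abundant droplet enzyme of the liver, averaged 162 ± 46.7 CPM in the 6 °C libraries and 199 ± 38.0 CPM in the 29 °C ones (0.29, adjusted p = 0.460).

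Regulators known to act on the set were followed by lists of genes linked to them. The lists count Ppara and Pparg themselves and are not limited to direct targets. Of 16 fasting-linked PPARA genes 1 rose and 0 fell in 29 °C against 6 °C. In that list 15 had positive values and the median log2 fold change was 0.62. With the split term 3 rose and 0 fell. Of all tested genes 1.13% rose without that term and 6.32% with it. Acot2, a mitochondrial acyl-CoA thioesterase gene, rose from 2.80 ± 0.891 to 15.1 ± 5.79 CPM (2.41, adjusted p = 0.00916 in edgeR). Its cytosolic relative Acot1, with which reads may be shared, was at 2.48 (adjusted p = 0.0616) and Pdk4, an inhibitor of pyruvate oxidation, at 2.19 (adjusted p = 0.0934). Of 14 tested hypoxia-inducible genes none passed, 12 had positive values and the median was 0.31, with Ldha at 1.01 (adjusted p = 0.0634), Pfkfb3 at 1.03 (adjusted p = 0.125) and Ndrg1 at 0.98 (adjusted p = 0.116). With the split term 4 of these 14 rose and 0 fell, where 6.32% of all tested genes rose. Among the 4 were Ldha (adjusted p = 0.0232 in edgeR with that term), Ndrg1 (0.0123) and Pfkfb3 (0.00513). Of 6 tested PPARG-linked fat storage genes none passed (median 0.29), with Pparg itself at 0.44 (adjusted p = 0.501), Acaca at 0.49 (adjusted p = 0.235) and Vldlr at -0.65 (adjusted p = 0.445). With the split term 1 of the 6 rose, Acaca (adjusted p = 0.0439 in edgeR), and 0 fell.

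The genes most like 3 of the members across the 12 libraries were found by Pearson's r of log2 CPM, as a description over libraries that share depth and the split. Plin2 was most like Epha2 (0.936), Slc25a47 (0.935), a mitochondrial carrier gene of the liver, and Ctif (0.932). Cidec was most like Sp140 (0.912), Slc1a5 (0.907) and Ipo13 (0.902). Pnpla2 was most like Slc27a2 (0.904), a fatty acid transport and activation gene, Zswim7 (0.898) and Tns2 (0.893). Slc25a47 averaged 308 CPM at 6 °C, 420 CPM at 22 °C and 928 CPM at 29 °C, and Slc27a2 802, 688 and 766 CPM.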

How the data were processed

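Values are raw counts per gene, as the authors deposited them (per the file headers, with symbols and versioned Ensembl identifiers). Upstream, the build GRCm38 and the tools STAR 2.6.1a, bcl2fastq and DESeq2 1.44.0 appear without roles in the submitters' processing notes, and how reads were counted, including strand, is not stated there. The test was edgeR 4.0.16's robust quasi-likelihood test (R 4.3.3, filterByExpr with a minimum count of 10, TMM) on 12 libraries with 3 group means, two-sided, with Benjamini-Hochberg adjustment over 15006 genes (threshold 0.05; common biological coefficient of variation 0.321). CPM use TMM-scaled library sizes. The split term separates libraries by H2-Ea-ps (1 CPM or more). Exon unions and positions are from GENCODE vM21, which matched 55240 identifiers in any version and 54673 in the same one; Plin4 matched in another version. Floors of 3 counts cover counting error only. DESeq2 1.42.0 was an alternative. Only the fit of 12 libraries without the split term was run on simulated counts. Those counts held no such split, so that run does not bear on the other fits or on the split. The members and lists were chosen with earlier results of these data known. Besides the members, the text names the 3 tested genes of each list with the lowest p in 29 °C against 6 °C and the 3 genes most correlated with each of Plin2, Cidec and Pnpla2; Abhd5, Hsd17b13, Acsl4 and Tat were added after their values were seen.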

Additional observations from a re-analysis of the deposited data

Results flagged for a closer look

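Within groups of 4 libraries, 3 of 29 levels of the members had 1 library set apart, its gap to the nearest other over the group's range being above Dixon's 95% critical value for 4 samples; chance flags about 1 in 20 groups. Hilpda in library 4 at 6 °C had 2.84 CPM, where the next highest of the group had 0.798 CPM. Cidea in library 9 at 29 °C had 0.540 CPM (7 counts), against 0.136 CPM in the next. Cidea in library 7 at 22 °C had 0.0639 CPM, a single count against none in the others of its group.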

How the results depend on the processing

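Across 27 fold changes of the members, 562 values under other settings kept direction and side of the threshold in 480 cases, gained a call in 32, lost one in 28 and changed sign in 22, none of the last a called value. Plin2 kept its call in 29 °C against 6 °C under every setting run. The number of genes called moved most. It was 379 in 29 °C against 6 °C, 1182 with DESeq2, 1884 with the split term, 1504 in the 8 libraries without H2-Ea-ps, 1305 with the split term and no library 11 (an alternative chosen after seeing the data), and 41 (without library 10) to 439 (without library 7) leaving out 1 library. It was 0 in 29 °C against 22 °C, 15 without a low-count filter, 308 with DESeq2, 516 with the split term, 2594 in the 8 libraries, 100 with the split term and no library 11, and 0 to 78 (without library 9) leaving out 1. It was 5 in 6 °C against 22 °C, 167 with DESeq2, 55 with the split term, 3 with only the libraries compared, 1015 in the 8 libraries, 36 with the split term and no library 11, and 3 to 7 leaving out 1. The cause was not tested. Without a low-count filter Plin5, G0s2 and Hilpda lost their calls in 29 °C against 6 °C, and Cidec gained one (adjusted p = 0.0399 in edgeR). With only the 8 libraries compared G0s2 and Hilpda lost theirs. Plin4 (adjusted p = 0.0102 in edgeR) and Cidec (0.0204) gained one there, as both also did with DESeq2. In 6 °C against 22 °C the sign changed for Cideb (-0.10 with the split term, -0.071 in the 8 libraries, -0.11 with the split term and no library 11; -0.060 to 0.19 leaving out 1), Cidec (0.24, 2.43 and 0.31 under the same 3 settings, the second resting on 0 and 2 counts at 22 °C; -0.64 to 1.20 leaving out 1), Plin5 (0.51 in the 8 libraries) and Hilpda (0.081 in the 8 libraries). Leaving out 1 library gave Cideb -0.24 to 0.026 in 29 °C against 6 °C and -0.15 to 0.072 in 29 °C against 22 °C, and Pnpla2 -0.018 to 0.37 in the latter. No paired analysis was possible because the labels number the libraries 1 to 12 with no number shared between temperatures. Depth limits Cidea, at 13 counts over the 29 °C group, and Cidec below 29 °C.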
